A study of Homo sapiens with 4 samples.

Results

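The ERBB receptors and their ligands were followed in Panc1, a human line established from a carcinoma of the pancreatic duct, as 10 genes chosen by name among the 54628 genes of each count table. They are the receptors EGFR, ERBB2, ERBB3 and ERBB4 and the ligands AREG, EREG, HBEGF, TGFA, BTC and NRG1, and all 10 were found. Poly(A) RNA was sequenced from 2 samples labelled as treated with an siRNA to HMGB2 and 2 labelled scramble siRNA, a control without a stated target, for 4 libraries in all. HMGB2 encodes an abundant high mobility group protein that bends DNA in chromatin, and the comparison addresses which transcripts differ when it is knocked down. The siRNA sequences, doses and times are not given in the sources used here. The labels do not say that the libraries came from separate cultures. Every p below sets a difference between groups against the scatter of these libraries, and that scatter may be technical only.

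ERBB receptors are tyrosine kinases of the cell surface that pair with each other when a ligand binds and then signal through the RAS-ERK and PI3K-AKT routes. Most ligands are made as membrane proteins and released by proteases. AREG and TGFA bind EGFR, HBEGF, EREG and BTC bind EGFR and ERBB4, and NRG1 binds ERBB3 and ERBB4. ERBB2 has no known ligand and acts as a partner of the others, and ERBB3 has little kinase activity of its own. In pancreatic ductal carcinoma EGFR is best known as the target of erlotinib.

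HMGB2 checks the labels and went against them. Its counts were 4021 and 2746 under the HMGB2 siRNA label but 346 and 319 under the scramble label, a log2 fold change of 3.07 ± 0.08 (SE; edgeR adjusted p = 1.54e-33). The column of counts was headed with the other treatment in all 4 tables as well. Groups are therefore named as labelled, and the HMGB2 counts are recalled with each direction: those labelled HMGB2 siRNA are HMGB2-high and those labelled scramble are HMGB2-low. Library totals ran from 20340695 to 31852391 counts, with replicate 1 labelled HMGB2 siRNA the deepest. The edgeR quasi-likelihood test was run on 15161 genes, and 30.8% of them passed at a Benjamini-Hochberg adjusted p under 0.05. The keratins KRT8, KRT18 and KRT19 and vimentin (VIM) were at 397 CPM or more in every library, and EPCAM at 16.6 to 18.5 CPM. KRT19 was higher under the HMGB2 siRNA label (721 and 690 CPM) than under the scramble label (480.5 and 397 CPM). KRT8 (2719 and 2769 against 2538 and 1957 CPM) and VIM (2474 and 2348 against 2227 and 2153 CPM) were higher too, without overlap. So was EPCAM (18.46 and 18.01 against 17.78 and 16.59 CPM), while KRT18 overlapped. The part of these differences in the results below was not tested. CPM are counts scaled to a common total. Of 12 markers of acinar, islet, leukocyte, endothelial and fibroblast cells, 11 were under 0.2 CPM in every library and 4 of these had no count. The sum of those 11 was 0.049 to 0.381 CPM under the HMGB2 siRNA label and 0.181 to 0.288 CPM under the scramble label. The remaining marker, CD68, had 98.6 to 121 CPM with overlapping groups.

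The stretches of 250 bases before the annotated starts of EGFR, HBEGF and ERBB2 are shown because these genes passed the test below. NRG1 passed as well, but its window was not searched. The sequences are from RefSeq (GRCh38.p14), each start is the outer end of the gene as counted, and capitals mark any match on either strand to 5 searched words. The GC box was searched as GGGCGG and the CCAAT box by those letters. The TATA box was searched as TATAAA. An AP-1 site was searched as TGANTCA and an E box as CACGTG.
EGFR, chr7:55018767-55019016, plus strand: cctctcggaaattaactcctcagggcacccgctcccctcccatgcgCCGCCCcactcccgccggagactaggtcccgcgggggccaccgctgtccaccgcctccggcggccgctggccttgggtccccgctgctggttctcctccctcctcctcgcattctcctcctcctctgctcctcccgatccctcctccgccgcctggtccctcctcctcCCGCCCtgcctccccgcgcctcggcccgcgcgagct
HBEGF, chr5:140346604-140346853, minus strand: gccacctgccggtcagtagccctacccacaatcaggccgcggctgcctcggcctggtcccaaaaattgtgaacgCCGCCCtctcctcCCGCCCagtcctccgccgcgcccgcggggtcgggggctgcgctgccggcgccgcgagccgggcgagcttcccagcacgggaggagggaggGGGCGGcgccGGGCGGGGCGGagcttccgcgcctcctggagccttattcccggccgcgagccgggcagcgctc
ERBB2, chr17:39687844-39688093, plus strand: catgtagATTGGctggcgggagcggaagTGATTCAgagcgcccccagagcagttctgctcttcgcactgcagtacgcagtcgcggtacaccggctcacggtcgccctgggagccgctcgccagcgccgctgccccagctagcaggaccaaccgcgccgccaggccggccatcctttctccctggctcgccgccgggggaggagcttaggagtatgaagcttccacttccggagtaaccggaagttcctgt
The EGFR window held 2 GC boxes and the HBEGF window 5, of which a pair overlap, and neither held any of the other words. A second annotated EGFR start, inside the gene, has a window (chr7:55109589-55109838) with 38.8% GC, no GC box, 2 TATA boxes and 2 AP-1 words. The ERBB2 window held the CCAAT box and the AP-1 word 1 time each, and no GC box. It lies before the outermost annotated start, and its overlap with exons of other genes was not tested. Read on the minus strand, the printed ERBB2 window holds an ATG that no in-frame stop codon follows up to the window's end. Both marked words lie within that reading frame. Whether the frame belongs to a coding exon of another gene was not tested, so neither word is read as an element of the ERBB2 promoter. Over all 35116 RefSeq windows of this length 42.6% held the GC box, 32% the CCAAT box, 10.7% the TATA box, 6.57% the AP-1 word and 6.34% the E box. The GC content was 73.6% for EGFR, 76.4% for HBEGF and 65.6% for ERBB2, against a median of 58% over all windows. AREG and EREG, which did not pass the test, each held the TATA box 1 time. AREG also held 1 GC box and EREG 2 CCAAT boxes. TGFA, which did not pass either, had 75.6% GC and 3 GC boxes at its outer start, and none of the other words. Of the untested members, ERBB4 held 1 GC box and BTC, at an inner start, none of the words. For ERBB3 no window was matched. Counts per gene do not show which start site the cells used.

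Of the 10 members, 8 had enough counts to be tested, and 4 of these were lower in the HMGB2-high libraries (labelled HMGB2 siRNA): EGFR, ERBB2, NRG1 and HBEGF. Over all genes tested 14.1% were called lower and 16.7% higher. No member was called higher: the count was 0 by edgeR, 0 at an unadjusted p under 0.05, 0 by DESeq2 and 0 by limma-voom. DESeq2 called 15.2% of the genes with an adjusted p higher. The median log2 fold change (labelled HMGB2 siRNA minus labelled scramble) was -0.33 over the 8 tested members and -0.01 over all genes. For 5 of the 8 both libraries labelled HMGB2 siRNA lay below both labelled scramble, which held for 31.6% of all genes tested. DESeq2 called 3 members lower, against 8.78% of the genes to which it gave an adjusted p, and gave none to ERBB3, AREG and TGFA. In bulk RNA a smaller share of cells with a transcript and less of it per cell cannot be told apart.

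**Figure D1:**
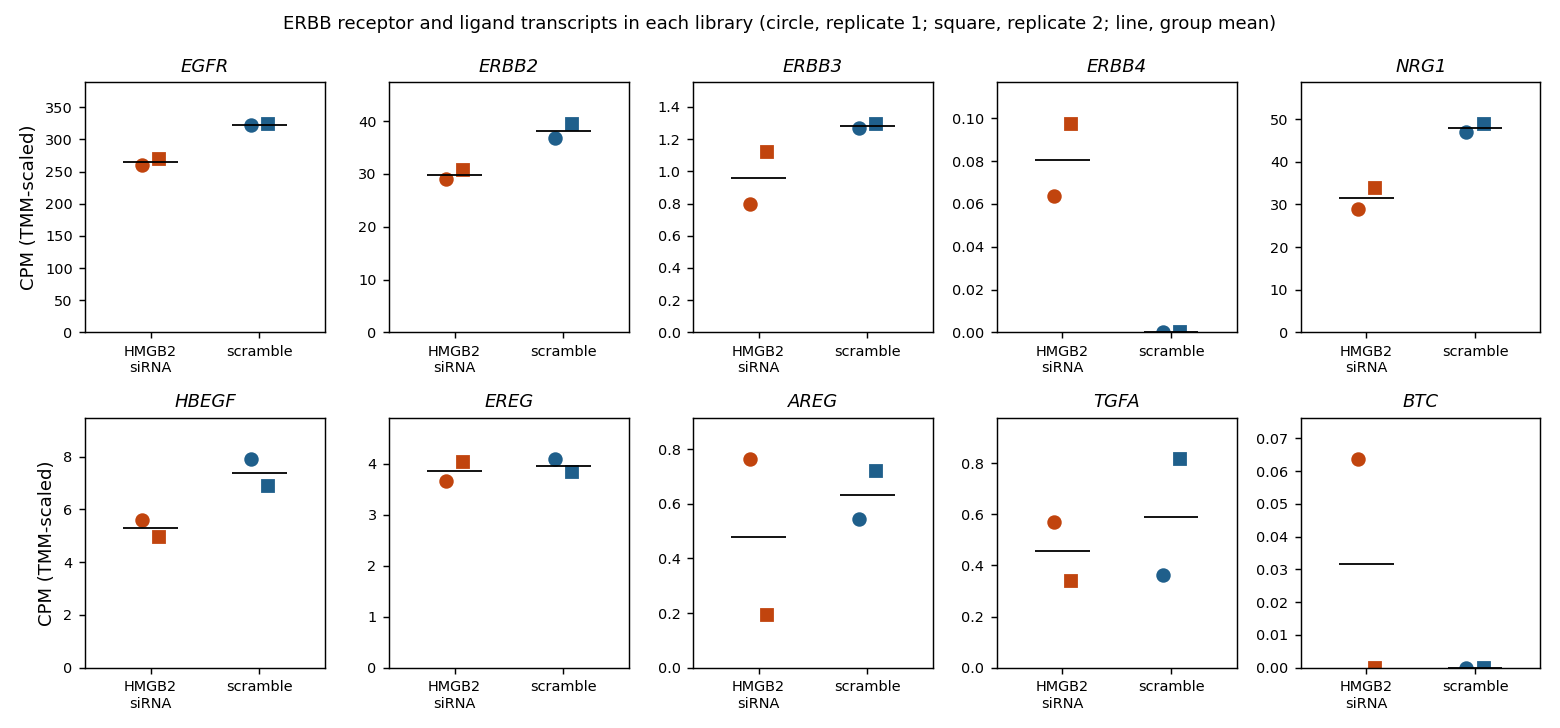
Each panel plots CPM (y axis, from 0) of 1 gene in the 4 libraries, grouped by label, with circles for replicate 1, squares for replicate 2 and a line at the group mean. EGFR, ERBB2, ERBB3, NRG1 and HBEGF do not overlap between groups, EREG, AREG and TGFA do, and ERBB4 and BTC have at most 2 counts in any library.

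EGFR (GRCh38 chromosome 7, 55019017 to 55211628, plus strand) was the most abundant member. Its exons had 260 and 269 CPM under the HMGB2 siRNA label (HMGB2 counts 4021 and 2746) and 322 and 324 CPM under the scramble label (HMGB2 counts 346 and 319). Both HMGB2-high libraries were thus lower, and the gap between groups was larger than the gap within either. The means were 264 ± 6.2 and 323 ± 1.2 CPM (SD, n = 2 each). The fitted log2 difference was -0.29 ± 0.06 (SE; edgeR adjusted p = 0.000323). EGFR was 1.22-fold higher in the HMGB2-low libraries. Without replicate 1 labelled HMGB2 siRNA the log2 fold change was -0.26 and the call was lost (edgeR adjusted p = 0.0687). The antisense transcripts EGFR-AS1 and LOC105375284 share 186 and 192 of the 11427 counted bases of EGFR and had 7 to 14 counts per library.

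ERBB2 (chromosome 17, 39688094 to 39728660, plus strand), the receptor amplified in some breast and stomach cancers, was also lower. It had 29.01 and 30.67 CPM under the HMGB2 siRNA label and 36.9 and 39.5 CPM under the scramble label, with no overlap. The means were 29.8 ± 1.2 and 38.2 ± 1.8 CPM (SD, n = 2 each). The fitted log2 difference was -0.36 ± 0.09 (SE; edgeR adjusted p = 0.00111), or 1.28-fold higher in the HMGB2-low libraries. Without replicate 1 labelled HMGB2 siRNA this call was lost as well (-0.31, edgeR adjusted p = 0.0913). ERBB2 shares 151 bases of exon with MIEN1 on the opposite strand. MIEN1 had 1709 and 1093 counts against 1326 and 1234, more than the 913 and 630 against 813 and 823 of ERBB2 itself. These counts are not scaled for library depth, and replicate 1 labelled HMGB2 siRNA was the deepest. No direction of MIEN1 is read from them. The part of MIEN1 reads in the ERBB2 counts was not tested, and whether strand was used in counting is not given in the sources used here.

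The other receptors were scarce. ERBB3 (chromosome 12, 56080108 to 56103505, plus strand) was counted 25 and 23 times under the HMGB2 siRNA label and 28 and 27 times under the scramble label. This is 0.794 and 1.12 against 1.27 and 1.29 CPM, so the groups did not overlap, but the log2 fold change of -0.45 ± 0.38 (SE) did not pass (edgeR adjusted p = 0.405). A transcript on the opposite strand, LOC105369782, covers 15.5% of the counted ERBB3 bases and had 0 to 5 counts. ERBB4 (chromosome 2, 211375717 to 212538802, minus strand) was counted 2 and 2 times under the HMGB2 siRNA label and 0 and 0 times under the scramble label. A library without a count allows up to 3 counts of its total, or 0.137 and 0.147 CPM before scaling for the scramble libraries, so no difference in ERBB4 was detectable at this depth. These limits cover counting error only.

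Among the ligands NRG1 (chromosome 8, 31639245 to 32774046, plus strand), neuregulin 1, had the largest fitted difference of the called members. It had 29.01 and 33.93 CPM under the HMGB2 siRNA label (HMGB2 counts 4021 and 2746) and 46.9 and 48.8 CPM under the scramble label (HMGB2 counts 346 and 319). Both HMGB2-low libraries were above both HMGB2-high ones. The means were 31.5 ± 3.5 and 47.9 ± 1.4 CPM (SD, n = 2 each), and the log2 fold change was -0.61 ± 0.09 (SE; edgeR adjusted p = 1.03e-07), or 1.53-fold higher in the HMGB2-low libraries. The call held in all 12 alternatives, with log2 fold changes from -0.72 to -0.49. NRG1 encodes several protein types from different starts, which counts per gene do not separate.

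HBEGF (chromosome 5, 140332843 to 140346603, minus strand), the heparin-binding ligand of EGFR, had 5.59 and 4.97 CPM under the HMGB2 siRNA label and 7.89 and 6.90 CPM under the scramble label. The groups did not overlap, with means of 5.28 ± 0.44 and 7.40 ± 0.70 CPM (SD, n = 2 each). The log2 fold change was -0.48 ± 0.17 (SE; edgeR adjusted p = 0.0233), or 1.39-fold higher in the HMGB2-low libraries. This call was the least stable of the 4. It was lost with DESeq2 (-0.48, adjusted p = 0.176). It was also lost without replicate 1 labelled HMGB2 siRNA (-0.57, edgeR adjusted p = 0.0731), without replicate 2 of that label (-0.40, edgeR adjusted p = 0.205) and without scramble replicate 1 (-0.37, edgeR adjusted p = 0.125).

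EREG, AREG and BTC lie near each other on chromosome 4. EREG (74365145 to 74388749, plus strand), epiregulin, had 3.65 and 4.04 CPM under the HMGB2 siRNA label and 4.08 and 3.83 CPM under the scramble label. The groups overlapped and the log2 fold change was -0.05 ± 0.21 (SE; edgeR adjusted p = 0.888). AREG (74445136 to 74455005, plus strand), amphiregulin, was counted 24 and 4 times under the HMGB2 siRNA label and 12 and 15 times under the scramble label. The first pair differed most: 0.763 CPM with a 95% exact Poisson interval of 0.489 to 1.14, against 0.195 CPM with an interval of 0.0531 to 0.499. The log2 fold change of AREG, -0.27 ± 0.52 (SE; edgeR adjusted p = 0.745), became 0.28 without replicate 2 labelled HMGB2 siRNA and -1.66 without replicate 1. BTC (74744759 to 74794718, minus strand), betacellulin, had 2 counts in replicate 1 labelled HMGB2 siRNA and 0 in the other 3 libraries, so no difference was detectable.

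TGFA (chromosome 2, 70447284 to 70553826, minus strand), transforming growth factor alpha, was counted 18 and 7 times under the HMGB2 siRNA label and 8 and 17 times under the scramble label. Each group held a low and a high library, at 0.572 and 0.341 CPM and at 0.363 and 0.815 CPM. The log2 fold change of -0.30 ± 0.52 (SE) did not pass (edgeR adjusted p = 0.719), and it became 0.38 without scramble replicate 2.

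**Figure D2:**
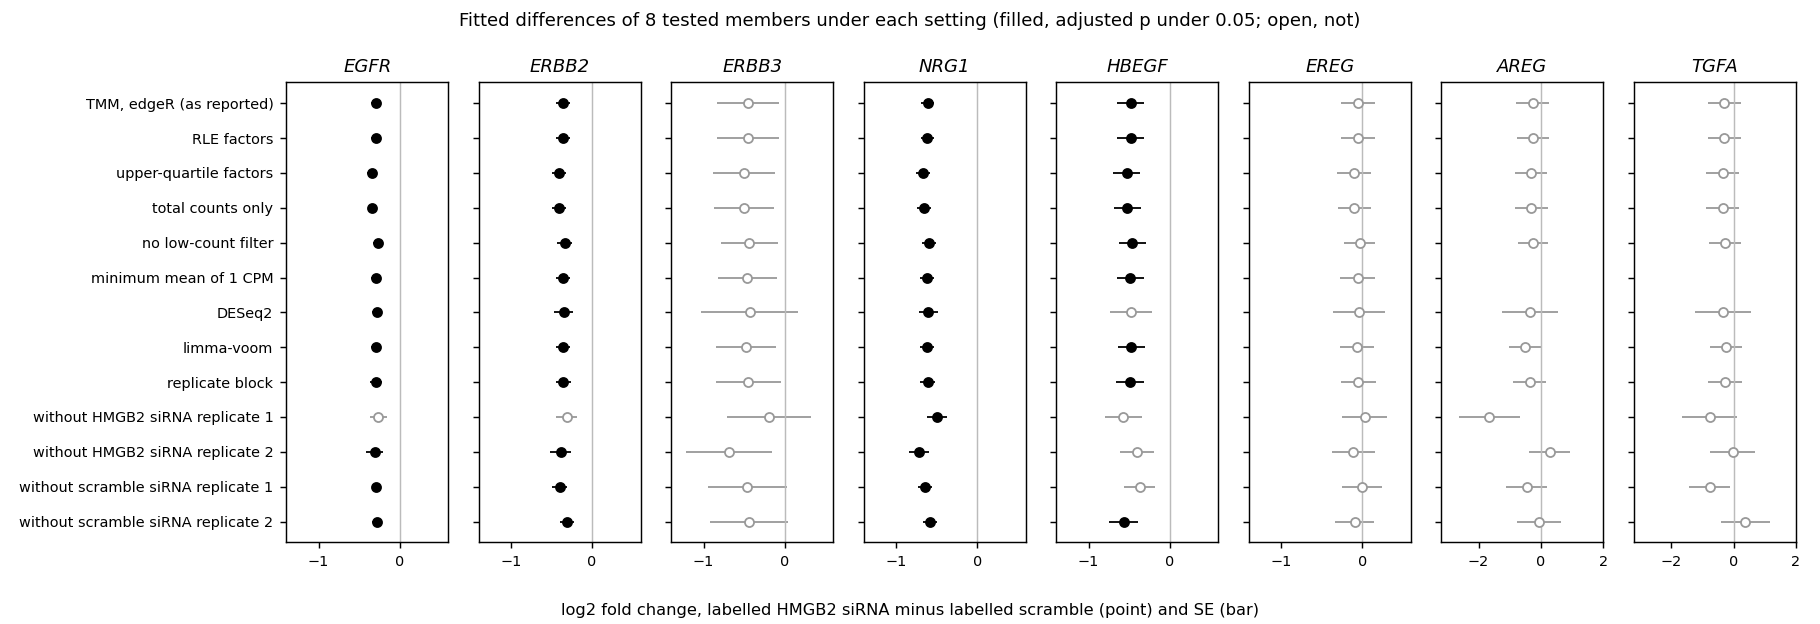
Each panel plots the log2 fold change of 1 tested member (x axis, labelled HMGB2 siRNA minus labelled scramble; the axes of AREG and TGFA are wider) with its SE under the reported setting and each alternative (y axis), filled where the adjusted p was under 0.05. NRG1 is filled in every line, EGFR and ERBB2 are open without replicate 1 labelled HMGB2 siRNA, and HBEGF is open in 4 lines.

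Levels were compared between genes as TPM, which divides counts by the exon length in the tables. EGFR had 56.6 and 57.6 TPM under the HMGB2 siRNA label and 69.4 and 72.3 TPM under the scramble label. ERBB2 followed by TPM with 11.3 and 11.8 against 14.2 and 15.8 TPM. EGFR made up 81.6% to 83.0% of the summed TPM of the 4 receptors in every library, and its ratio to ERBB2 was 4.59 to 5.01. The make-up of the receptor transcripts was thus close to constant across the libraries. HBEGF (5.16 to 8.24 TPM) and NRG1 (3.68 to 6.36 TPM) came next with overlapping ranges. By TPM EREG was at 1.97 to 2.18, above AREG at 0.387 to 1.54 TPM. ERBB3 (0.323 to 0.541 TPM) overlapped both AREG and TGFA (0.191 to 0.475 TPM), and BTC and ERBB4 were at most 0.0369 TPM.

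The order of several members depended on the length used. The tables merge all exons of a gene, which gives NRG1 19608 bases and HBEGF 2358, while the median protein-coding transcript in GENCODE 29 has 1611 and 2386 bases. HBEGF was at 1.35 times NRG1 by TPM (mean over 4 libraries) and at 0.11 times NRG1 per length of the median coding transcript, so NRG1 was then the higher. Per kilobase of that transcript NRG1 (24.62 CPM) also passed ERBB2 (10.5 CPM), while EGFR (87.58 CPM) stayed the highest. ERBB3 (1.09 CPM) then lay above EREG (0.845 CPM), TGFA (0.5501 CPM) and AREG (0.5056 CPM), although by mean TPM it lay below EREG and AREG. The median coding transcript of ERBB3 was 1027 bases over 11 entries, against 6108 counted bases. Those of EGFR and ERBB2 were 3354 and 3238 bases, against 11427 and 6386 counted. Whether these entries are full-length transcripts was not tested. The ratio of EGFR to ERBB2 was 4.84 by TPM and 8.37 per length of the median coding transcript. The second length was chosen after seeing the data.

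**Figure D3:**
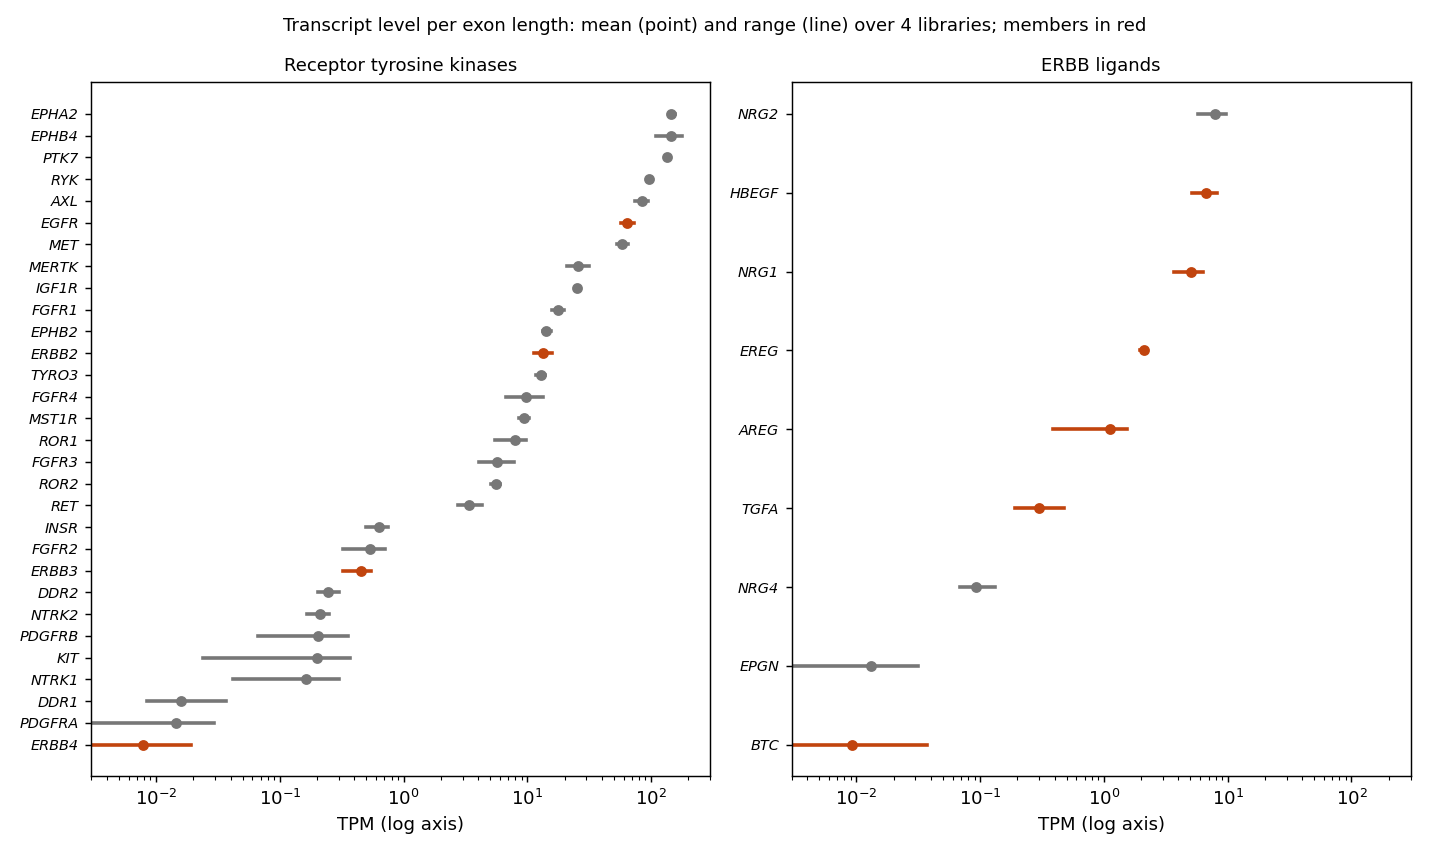
Mean TPM (points; log axis) and range over the 4 libraries (lines) of receptor tyrosine kinases (left) and ERBB ligands (right), members in red. Lines that reach the left edge include libraries at 0, and EGF and NRG3, at 0 in every library, are not drawn. By merged exon length, EGFR ranks 6 of 30 receptors and ERBB2 ranks 12.

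Set among 26 receptor tyrosine kinases of other families, EGFR ranked 6 of 30 by mean TPM, ERBB2 12, ERBB3 22 and ERBB4 30. These ranks rest on merged exon lengths, which for EGFR are 11427 bases against 3354 for its median coding transcript. The other kinases were not compared per median coding transcript, so the ranks may depend on the length used. The range of EGFR overlapped that of MET, the receptor of hepatocyte growth factor (52.7 to 65.1 TPM). EPHA2, an ephrin receptor, had the highest mean, 145.7 TPM. The range of ERBB2 overlapped those of EPHB2 (13.3 to 15.6 TPM), TYRO3 (11.6 to 13.8 TPM) and FGFR4 (6.71 to 13.3 TPM). Of 23 other kinases tested, 8 were higher in the HMGB2-high libraries (labelled HMGB2 siRNA), 3 were lower and 12 did not pass; the median of their log2 fold changes was 0.09 against -0.36 over the 3 tested ERBB receptors. Over all genes 16.7% were called higher and 14.1% lower, with a median of -0.01. The ephrin receptor EPHB4 had 316 and 319 against 200 and 188 CPM (log2 fold change 0.71), and ROR1, an orphan receptor that binds WNT5A, also 0.71. FGFR4, a fibroblast growth factor receptor, and MERTK, a receptor for apoptotic cells, were lower, at -0.90 and -0.51. The 8 higher calls of other kinases became 5 with DESeq2 and 5 without replicate 1 or 2 labelled HMGB2 siRNA or scramble replicate 2, and the 3 lower became 5 without scramble replicate 2. EPHB4 shares exonic bases with SLC12A9 on the opposite strand. DDR1, with 15 counts in all, is also placed on 6 alternative sequences, whose treatment in counting is not given in the sources used here. All 10 ERBB members lie on 1 sequence each.

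Other ERBB ligands included 1 that moved opposite to NRG1. NRG2, a neuregulin that also binds ERBB3 and ERBB4, had 34.3 and 33.5 CPM in the HMGB2-high libraries (labelled HMGB2 siRNA) and 24.9 and 19.9 CPM under the scramble label (HMGB2-low). Both HMGB2-high libraries were above both others, by a log2 fold change of 0.60 ± 0.10 (SE; edgeR adjusted p = 2.76e-06), or 1.51-fold. By TPM NRG2 was at 5.77 to 9.70, a range that overlapped those of HBEGF and NRG1. NRG4, named after its values were seen, did not pass (0.71 ± 0.42, edgeR adjusted p = 0.208). EGF and NRG3 had 0 counts in every library, and EPGN had 2 in all.

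Genes that release ligands split in direction. The counts of this and the following lists stand beside the same shares of all genes. Of 9 tested proteases and iRhoms, 1 was higher in the HMGB2-high libraries (labelled HMGB2 siRNA), 3 were lower and 5 did not pass; the median of their log2 fold changes was -0.31. ADAM10, a sheddase of betacellulin and EGF, had 155 and 149 against 111 and 119 CPM (log2 fold change 0.40 ± 0.07, SE). RHBDF1, which encodes the iRhom1 partner of ADAM17, had 29.2 and 27.8 against 41.6 and 41.4 CPM (-0.54 ± 0.09, SE). ADAM9 and the convertase PCSK6 were lower as well, at -0.31 and -0.55. ADAM17 itself, the main sheddase of AREG, HBEGF and TGFA and also named after its values were seen, had a log2 fold change of -0.10 ± 0.08 (SE) and did not pass (edgeR adjusted p = 0.357). The 3 lower calls became 1 without replicate 1 labelled HMGB2 siRNA, and the 1 higher call became 2 without scramble replicate 1. The call of ADAM9 was lost without the former (-0.28, edgeR adjusted p = 0.0639). That of PCSK6 was lost with DESeq2 (-0.55, adjusted p = 0.189) and without each library but scramble replicate 2 (-0.71 to -0.42). ADAM9 overlaps exons of TM2D2 on the opposite strand and has a copy on 1 alternative sequence.

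Among 19 tested genes that inhibit, dephosphorylate or sort ERBB receptors, 5 were higher in the HMGB2-high libraries (labelled HMGB2 siRNA), 2 were lower and 12 did not pass; the median of their log2 fold changes was 0.04. STAM, an endosomal sorting adaptor, had 33.0 and 28.9 against 23.8 and 20.9 CPM (log2 fold change 0.47). CBL, the ubiquitin ligase that marks active EGFR for breakdown, was at 0.26 and SOCS5 at 0.32. The phosphatase PTPN1 was lower, at -0.36. The 5 higher calls became 3 with upper-quartile or total-count scaling, 1 without replicate 1 labelled HMGB2 siRNA and 2 without replicate 2 of that label. The 2 lower calls became 4 without scramble replicate 1 and 1 without any other library, with DESeq2, with the replicate block and with no low-count filter. STAM lost its call without replicate 1 labelled HMGB2 siRNA (0.37, edgeR adjusted p = 0.0545), CBL without replicate 2 (0.23, edgeR adjusted p = 0.105) and SOCS5 without either (0.34 and 0.31). CBL shares exonic bases with MCAM on the opposite strand.

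Downstream, 28 adaptors and effectors were tested, of which 4 were higher in the HMGB2-high libraries (labelled HMGB2 siRNA), 6 were lower and 18 did not pass; the median of their log2 fold changes was 0.04. The PI3K regulatory subunit PIK3R1 had 24.9 and 26.0 against 11.6 and 12.6 CPM, a log2 fold change of 1.08 ± 0.11 (SE; edgeR adjusted p = 1.68e-11). PIK3R3, another regulatory subunit, was at 0.79. The transcription factor STAT3 had 287 and 292 against 380 and 366 CPM (-0.37), and NRAS was at -0.33. PIK3R3 shares exons with a readthrough gene on its own strand. HRAS was at 0 in every library and is also placed on an alternative sequence. Without replicate 2 labelled HMGB2 siRNA 3 genes of this list were called lower.

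Of 18 tested transcripts that EGF receptor signalling is known to induce, 2 were higher in the HMGB2-high libraries (labelled HMGB2 siRNA), 7 were lower and 9 did not pass; the median of their log2 fold changes was -0.16. JUN had 77.4 and 80.3 against 120 and 124 CPM (-0.63 ± 0.07, SE), and SPRY4, a feedback inhibitor of ERK signalling, 34.9 and 37.9 against 47.2 and 66.1 CPM (-0.64 ± 0.09, SE). Without scramble replicate 2 the value of SPRY4 was -0.38, still called. FOSL1, an AP-1 subunit, went the other way with 141 and 145 against 97.8 and 93.7 CPM (0.58 ± 0.07, SE), as did the phosphatase DUSP1 (0.52). EGR1, named here after its values were seen, was counted 46 and 28 times under the HMGB2 siRNA label and 100 and 78 times under the scramble label, with a log2 fold change of -1.54 ± 0.26 (SE; edgeR adjusted p = 4.62e-06). SPRY4 shares exons with SPRY4-IT1 on its own strand. MIR22HG was at 0 in every library and has exons on an alternative sequence.

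**Figure D4:**
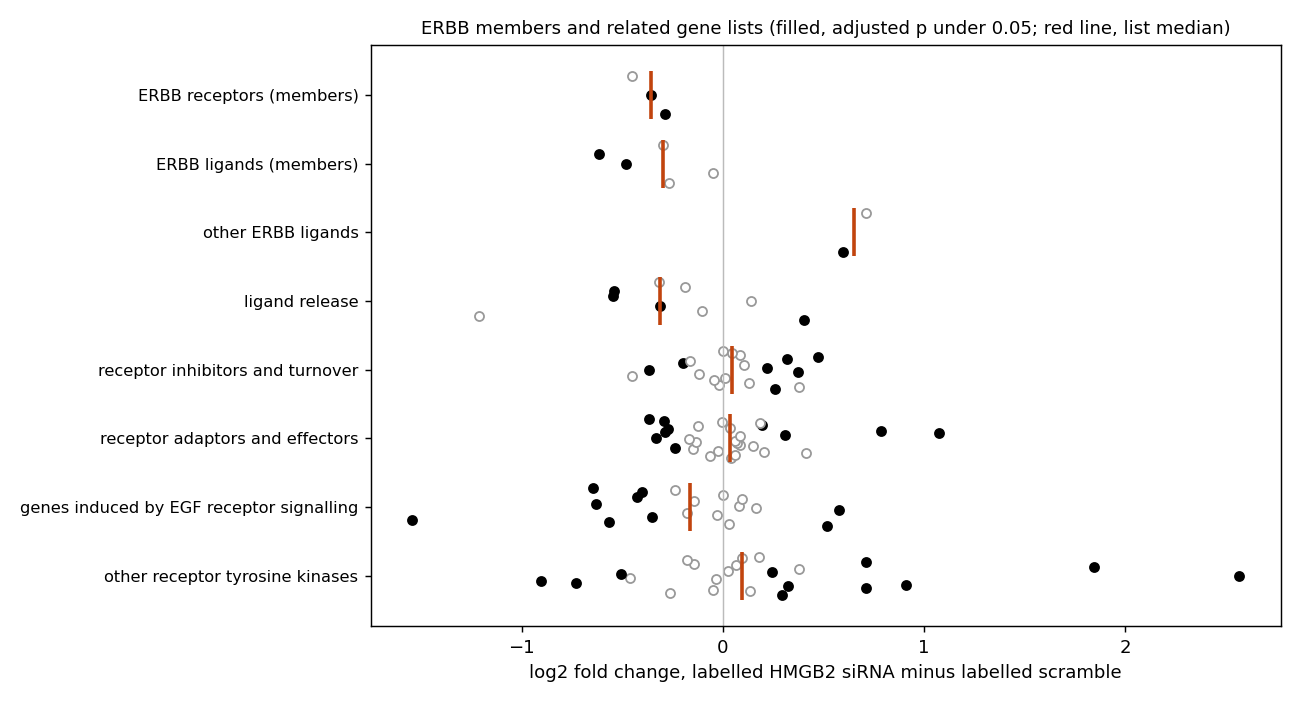
Log2 fold change (x axis, labelled HMGB2 siRNA minus labelled scramble) of each tested gene in 8 lists (y axis), filled where the edgeR adjusted p was under 0.05, with a red line at the list median. The 8 tested members all lie below 0, while each list of related genes other than the ligands holds filled points on both sides.

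By their pattern over the 4 libraries, the genes most like EGFR were CSNK2A2, a catalytic subunit of casein kinase II, DDOST, a subunit of the oligosaccharyltransferase, and DENND10. Their distances in centred log2 CPM were 0.0102, 0.0107 and 0.0121, the smallest of 10656 genes with a mean of at least 5 CPM. DDOST had 263 and 269 against 325 and 325 CPM, and CSNK2A2 22.4 and 23.2 against 27.6 and 27.7 CPM. The likeness rests on these 4 libraries only.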

How the data were processed

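Poly(A) RNA of 4 Panc1 libraries was analysed. The deposited values are whole-number read counts per gene over listed exons, 1 table per library, per the file headers. STAR, SAMtools 1.9, featureCounts of Subread 1.6.3, DESeq2 and the build hg38 (GRCh38) are listed without roles, per the submitters' processing notes. Strand setting and the treatment of multimapping reads are not given in the sources used here. Samples were grouped by their labels. No row lacked a gene name (0 rows).

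Counts were tested with edgeR 4.0.16 (quasi-likelihood, TMM, filterByExpr with a smallest count of 10 and total of 15, group only) in R 4.3.3, with Benjamini-Hochberg adjustment over 15161 genes. A fold change includes the prior count of edgeR, and its SE is its size divided by the root of the test's F. CPM used TMM-scaled totals, and TPM the length column. Over 2 against 2 libraries an exact two-sided permutation p cannot go below 0.333, so no such test was made. Counts of 14916 genes were simulated for this comparison, with 50 genes changed at each fold. Recovered were 48% of genes changed 1.25-fold, 76% at 1.5-fold, 84% at 2-fold and 100% at 4-fold, with 5 false calls. All changed genes had a mean above 1 CPM, while AREG and TGFA had means of 0.555 and 0.523 CPM. A far smaller share of genes was changed than the 30.8% called in the data. The recovered shares therefore do not carry over to this comparison or to these members. Replicate libraries differed by more than sampling noise (chi-square per degree of freedom 3.14 for the libraries labelled HMGB2 siRNA and 5.72 for scramble).

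The members and gene lists were chosen with earlier results of these data known. Named genes were HMGB2, the 10 members, up to 4 called genes of each list with the smallest p (the 2 most abundant where none passed), and the 3 genes most like the most abundant member. The alternatives tried were DESeq2 1.42.0, limma-voom 3.58.1, scaling by RLE, by upper quartiles or by totals, testing without the filter or above a mean of 1 CPM, a replicate block, leaving out each library, and 2 other measures per length. Promoter windows were matched by symbol for 8 of the members. No window was matched for ERBB3, and NRG1 was not searched. Python 3.11.15, pandas 2.3.3, NumPy 2.4.6, SciPy 1.17.1 and matplotlib 3.10.9 were used.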

Additional observations from a re-analysis of the deposited data

How the results depend on the processing

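Leaving out 1 library at a time, the members called lower numbered 1 to 4 (only NRG1 without replicate 1 labelled HMGB2 siRNA), and 0 were called higher. The log2 fold changes then ran from -0.31 to -0.26 for EGFR, -0.40 to -0.31 for ERBB2, -0.72 to -0.49 for NRG1, -0.57 to -0.37 for HBEGF, -0.68 to -0.19 for ERBB3, -0.11 to 0.03 for EREG, -1.66 to 0.28 for AREG, -0.77 to 0.38 for TGFA and 3.05 to 3.11 for HMGB2. Where a label kept 1 library, that library was assumed to vary like the others. Direction changed for EREG (0.03 without replicate 1 labelled HMGB2 siRNA and 0.00 without scramble replicate 1), AREG (0.28) and TGFA (0.38), none of them called. With DESeq2 HBEGF lost its call at -0.48, and 2936 genes were called (1076 lower), against 4671 (2135 lower) with edgeR. All genes called without 1 library ranged from 2384 (without replicate 1 labelled HMGB2 siRNA; 2627 without replicate 2) to 5195, those higher from 1481 to 2904 and those lower from 903 to 2291. The share of calls that were higher was 54.3% with TMM, 42.0% when scaled by upper quartiles and 43.3% when scaled by totals. These scalings moved the median of all genes by at most 0.0507, and no tested member changed direction with RLE, upper-quartile or total-count scaling. The causes were not tested. The replicate numbers of the labels were not shown to pair libraries (correlation of same-numbered deviations -0.0144), and with the replicate block 4457 genes were called, among them 4 members (EGFR -0.29, ERBB2 -0.35, NRG1 -0.61, HBEGF -0.49). Per length of the median coding transcript the ratio of EGFR to ERBB2 was 8.37 and that of HBEGF to NRG1 0.11, because the lengths differ. A minimum mean of 1 CPM left AREG and TGFA untested. Depth limited AREG, TGFA, ERBB3, ERBB4 and BTC, with at most 28 counts in a library.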
